A study of Homo sapiens with 6 samples.

Results

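Aldehyde dehydrogenases (ALDHs) were followed as a family across 6 one-colour arrays of HM20 cells, which the labels describe as A549, an established human lung adenocarcinoma line. The members were all probes whose single gene symbol was 1 of 10 ALDH genes, ALDH1A1, ALDH1A2, ALDH1A3, ALDH1B1, ALDH2, ALDH3A1, ALDH3A2, ALDH3B1, ALDH7A1 and ALDH1L1. They were 10 of the 18365 genes named on the array and gave 11 probes of the 24740 that carry 1 symbol, with 2 for ALDH7A1 and 1 for each other gene. The arrays profiled 5 stable clones, each labelled with a secreted Frizzled-related protein (SFRP1 to SFRP5, extracellular proteins that bind Wnt ligands), and a mock population. What sets HM20 apart from A549 was not stated in the labels. All 6 populations, mock included, had been in medium containing Wnt3a for 24 hours, so none of the values below measures a response to Wnt3a. Each population had 1 array and there were no replicates. Precision is limited by this number of arrays.

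ALDH enzymes oxidise aldehydes to carboxylic acids with NAD or NADP. Members of the ALDH1A branch make retinoic acid from retinaldehyde, while others remove aldehydes that come from ethanol, lipid peroxidation or amino acid breakdown. Because cells with high ALDH activity can be sorted with a fluorescent substrate, this activity, and ALDH1A1 and ALDH1A3 in particular, serve as markers of cancer stem cells in lung and other carcinomas. The series title names cancer stem cell properties as its subject, and mock is the control of the design.

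Intensities were used as deposited, and differences are given as clone minus mock on the log2(intensity + 1) scale. A probe passed the filter on dim values when its brightest array reached the median of the whole table, an intensity of 641.8. Of the 11 ALDH probes 8 passed, and the probes of ALDH1A1 and ALDH1L1 and the second probe of ALDH7A1 did not. The ALDH3A1 probe passed through the mock array alone, and the ALDH1A2 probe through the SFRP4 array alone. Either therefore had to differ on that array, and neither is counted below as support for a family trend. The 5 clone comparisons share the same mock array. The array medians of the clones lay 0.05 to 0.20 above that of mock on the log2 scale, a shift that scaling would remove. Of the 6 probes for SFRP genes, 0 was at least 2-fold above mock in the clone labelled with that gene. The probes of SFRP2, SFRP4 and SFRP5 read 58.1, 53.3 and 44.5 in the clones labelled with them, against 72.4, 67.7 and 70.5 in mock. The SFRP1 probe was bright in both, at 88063 in the SFRP1 clone and 58836 in mock. The probes of FRZB, the gene symbol of SFRP3, read 347.5 and 436.4 in the SFRP3 clone, against 256.6 and 475.5 in mock. Each clone is named by its label alone. Of 5 epithelial markers on the array (KRT7, KRT8, KRT19, EPCAM and CDH1), 0 to 3 reached the table's median in the clones and 4 did in mock. In the SFRP1 clone 0 of the 5 reached it. Fibroblast and blood markers stayed below the table's median apart from COL1A1, CD68 and, in the SFRP4 clone, LUM.

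Promoter sequences were available in the RefSeq-derived table (GRCh38.p14) for 8 of the 10 genes, as 12 windows that run from 250 bases before to 50 bases after a transcript start. ALDH2 and ALDH3A1 had no window, so neither gene was searched for the cores below. Searched on both strands, the xenobiotic response element core GCGTG occurred in 3 of the 12 windows, against 36.5% of all 35116 promoter windows. The antioxidant response element core TGACNNNGC occurred in 0 of the 12 windows, against 13.3% of all windows, and the TCF/LEF core ATCAAAG in 0 of the 12, against 2.62%. The windows of ALDH1A2 and ALDH3A2 are shown because both genes spanned at least 2-fold over the arrays and 1 start of each gene holds the core GCGTG. Capitals mark the core or its reverse complement CACGC. The ALDH1A2 window lies on the minus strand at chr15:58065662-58065961, with matches that begin 221 bases upstream of the start and at base 28 downstream. The ALDH3A2 window lies on the plus strand at chr17:19648501-19648800, with matches that begin 76 bases upstream and at base 43 downstream. The remaining window with a match was that of ALDH1A3, and the second start of ALDH1A2 and of ALDH3A2 had none.
ALDH1A2: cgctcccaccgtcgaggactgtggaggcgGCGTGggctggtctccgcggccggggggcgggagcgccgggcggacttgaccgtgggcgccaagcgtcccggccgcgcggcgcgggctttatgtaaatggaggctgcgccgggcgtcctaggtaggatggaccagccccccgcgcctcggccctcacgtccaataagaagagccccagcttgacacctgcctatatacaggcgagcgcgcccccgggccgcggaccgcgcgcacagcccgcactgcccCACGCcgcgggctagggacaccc
ALDH3A2: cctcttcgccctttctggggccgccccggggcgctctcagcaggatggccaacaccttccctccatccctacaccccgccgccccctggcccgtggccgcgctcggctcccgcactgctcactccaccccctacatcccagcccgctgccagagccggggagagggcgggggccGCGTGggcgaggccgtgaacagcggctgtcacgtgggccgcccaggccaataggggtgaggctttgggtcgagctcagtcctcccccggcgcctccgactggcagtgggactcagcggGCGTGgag

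ALDH3A1, an enzyme for aromatic and medium-chain aldehydes that is abundant in the cornea, had the largest difference of the 11 probes. Its probe read 234.0 in the SFRP1 clone, 158.3 in SFRP2, 96.3 in SFRP3, 198.1 in SFRP4 and 140.0 in SFRP5, against 756.5 in mock. All 5 clones lay below mock and the SFRP3 clone was the lowest. The differences from mock were -1.69 in SFRP1, -2.25 in SFRP2, -2.96 in SFRP3, -1.93 in SFRP4 and -2.43 in SFRP5, so mock was 3.22 to 7.79 times as bright on this scale. The readings in the clones were 1.81 to 2.96 times the 10th percentile of their own array, near the dim end of the scale. Among the 15227 named probes that passed the filter, 0.374% lay at least 2-fold below mock in all 5 clones, and 8.76% lay below mock in all 5 at any size. Of all 24740 named probes without a filter, 7.22% lay below mock in all 5. The ALDH3A1 probe passed the filter through mock alone, so it had to lie below mock in all 5 clones. These shares therefore do not measure how rare its result is.

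With the 5 clones taken as a set, limma estimated a difference of -2.25 ± 0.48 (SE) for ALDH3A1, with an unadjusted p of 0.00136 and an adjusted p of 0.869. Since the probe passed the filter through mock alone, the fit over all 24740 named probes with no filter was also made, and gave an unadjusted p of 0.000955 and an adjusted p of 0.887. The spread in this fit is that among clones of different SFRP genes, and the single mock reading is taken to have the same spread. At an adjusted p under 0.05 limma called 0 of the 8 ALDH probes, against 0.0328% of all 15227 probes tested. At an unadjusted p under 0.05 it gave ALDH3A1, the probe that the filter kept for its mock reading, and 2.11% of all probes. Nothing is read from this 1 probe. The stricter filter, which asks for a high mean over the arrays, removed the ALDH3A1 probe, so its count of 0 of 6 is no test of ALDH3A1. The difference of ALDH3A1 therefore rests on 1 mock reading and did not pass the test.

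**Figure D1:**
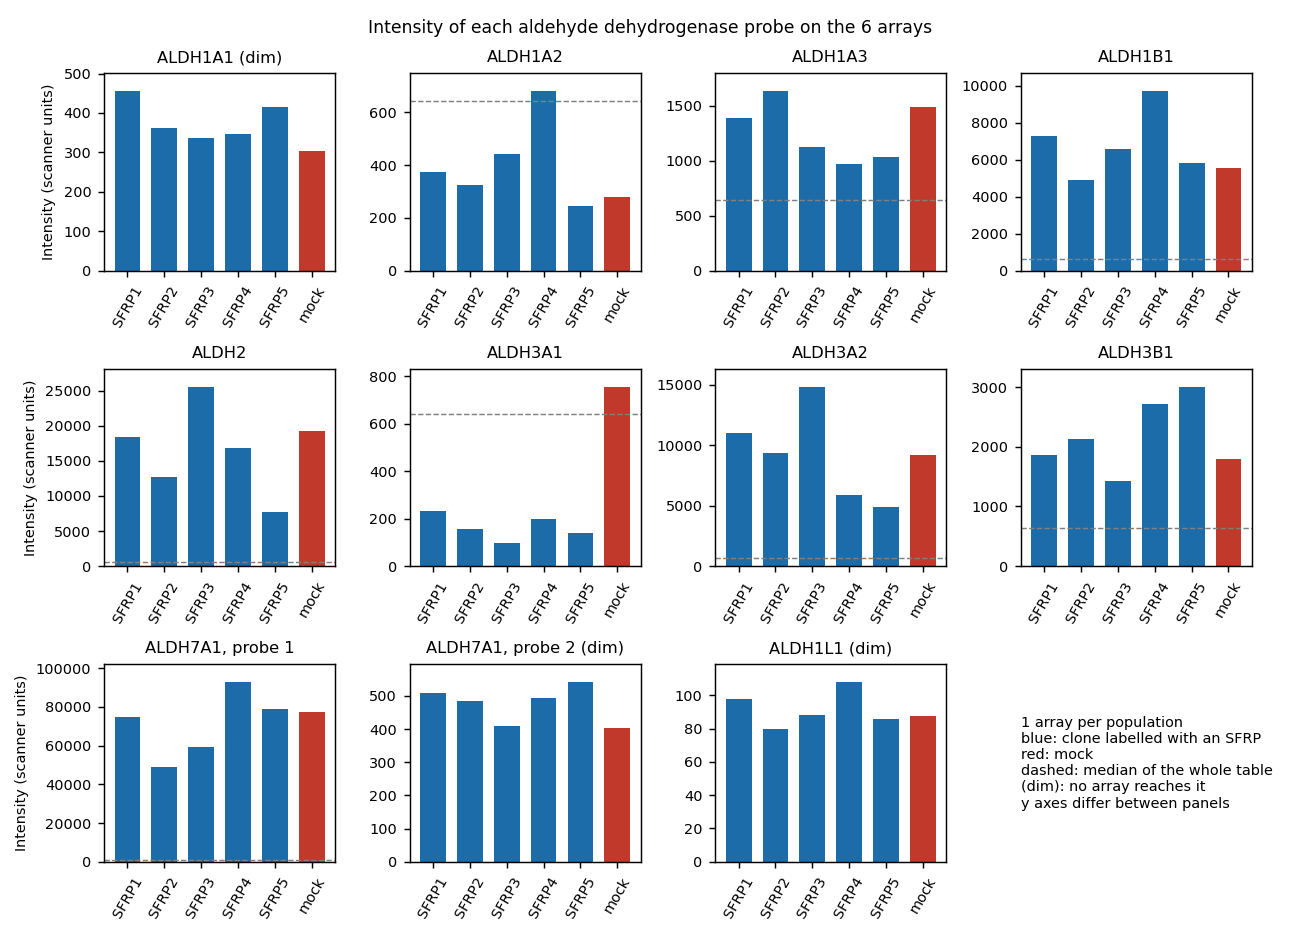
Intensity in scanner units (y axis, from 0, scaled per panel) of each ALDH probe on the 6 arrays (x axis), with the 5 SFRP clones in blue, mock in red and the median of the whole table, 641.8, as a dashed line. ALDH3A1 reads 96.3 to 234.0 in the clones and 756.5 in mock, whereas mock lies among the clones for ALDH2, ALDH3A2 and the first probe of ALDH7A1.

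The retinoic acid-forming enzymes did not share an order. ALDH1A1, the member most often used as a stem cell marker and one reported as abundant in A549 cells, had a dim probe here that stayed below the table's median on all 6 arrays. It read 455.2 in SFRP1, 361.9 in SFRP2, 336.5 in SFRP3, 345.7 in SFRP4 and 415.6 in SFRP5, against 303.5 in mock. All 5 clones were above mock, by 0.58 in SFRP1, 0.45 in SFRP5, 0.25 in SFRP2, 0.19 in SFRP4 and 0.15 in SFRP3. Of all 24740 named probes without a filter, 13.9% also had all 5 clones above mock. In a fit with no filter on dim probes, limma estimated a difference of 0.32 ± 0.35 (SE; adjusted p = 1.00). After median centring the ALDH1A1 differences were 0.46 in SFRP1, 0.25 in SFRP5, 0.15 in SFRP2, 0.07 in SFRP4 and 0.09 in SFRP3.

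ALDH1A2, which makes retinoic acid in the embryo, was brightest in the SFRP4 clone. It read 375.9 in SFRP1, 324.5 in SFRP2, 442.8 in SFRP3, 680.5 in SFRP4 and 246.3 in SFRP5, against 278.2 in mock. Mock lay between SFRP5 and SFRP2, and the difference of 1.29 in SFRP4 was the only one of at least 2-fold. ALDH1A3, the third retinaldehyde enzyme and another stem cell marker, spanned 0.74 log2 units over the 6 arrays. Its probe read 1387 in SFRP1, 1634 in SFRP2, 1124 in SFRP3, 974.3 in SFRP4 and 1032 in SFRP5, against 1490 in mock. The SFRP2 clone was above mock by 0.13, and the other 4 clones differed from it by -0.10 to -0.61. The limma differences of the set were 0.49 ± 0.51 (SE) for ALDH1A2 and -0.30 ± 0.39 (SE) for ALDH1A3 (adjusted p = 1.00 for both).

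The mitochondrial enzymes ALDH2, which oxidises the acetaldehyde formed from ethanol, and ALDH1B1, its close relative, had bright probes on every array. ALDH2 read 18425 in SFRP1, 12748 in SFRP2, 25560 in SFRP3, 16835 in SFRP4 and 7677 in SFRP5, against 19294 in mock. Mock was second to the SFRP3 clone, and the SFRP5 clone was the lowest. The difference from mock was -1.33 in SFRP5, at least 2-fold, and lay between -0.60 and 0.41 in the other clones. ALDH1B1 read 7284 in SFRP1, 4919 in SFRP2, 6576 in SFRP3, 9707 in SFRP4 and 5802 in SFRP5, against 5559 in mock. Its differences ran from -0.18 in SFRP2 to 0.80 in SFRP4, so none reached 2-fold.

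ALDH3A2, the fatty aldehyde dehydrogenase that is deficient in Sjögren-Larsson syndrome, shared its highest and lowest array with ALDH2. It read 11031 in SFRP1, 9313 in SFRP2, 14828 in SFRP3, 5883 in SFRP4 and 4851 in SFRP5, against 9167 in mock. As for ALDH2, the SFRP3 clone was the highest and the SFRP5 clone the lowest, and these 2 clones differed by 1.61 for ALDH3A2 and by 1.74 for ALDH2. Mock lay among the clones for both genes. Between these ends the orders differed: SFRP4 lay above SFRP2 for ALDH2 and below it for ALDH3A2. The ALDH3A2 difference from mock was -0.92 in SFRP5, just short of 2-fold, and became -1.12 after median centring. ALDH3B1, which acts on lipid-derived aldehydes, was instead highest in SFRP5 and lowest in SFRP3. It read 1857 in SFRP1, 2129 in SFRP2, 1435 in SFRP3, 2723 in SFRP4 and 3006 in SFRP5, against 1800 in mock. The differences from mock ran from -0.33 in SFRP3 to 0.74 in SFRP5.

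ALDH7A1, or antiquitin, an enzyme of lysine breakdown, had 2 probes that did not give the same order. The bright probe read 74915 in SFRP1, 48812 in SFRP2, 59271 in SFRP3, 92711 in SFRP4 and 79095 in SFRP5, against 77526 in mock, and differed from mock by -0.67 in SFRP2 to 0.26 in SFRP4. The dim probe read 408.9 to 541.4 in the clones and 404.1 in mock, and its differences were 0.02 to 0.42. In SFRP1, SFRP2 and SFRP3 the differences of the bright and the dim probe had opposite signs, but scaling turned the sign of the bright probe in SFRP1 (-0.05) and of the dim probe in SFRP3 (0.02). The ALDH1L1 probe, for a cytosolic enzyme of folate metabolism, read 79.5 to 107.9 in the clones and 87.4 in mock. The 6 readings were 1.08 to 1.66 times the 10th percentile of their arrays, so no order was read from them.

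**Figure D2:**
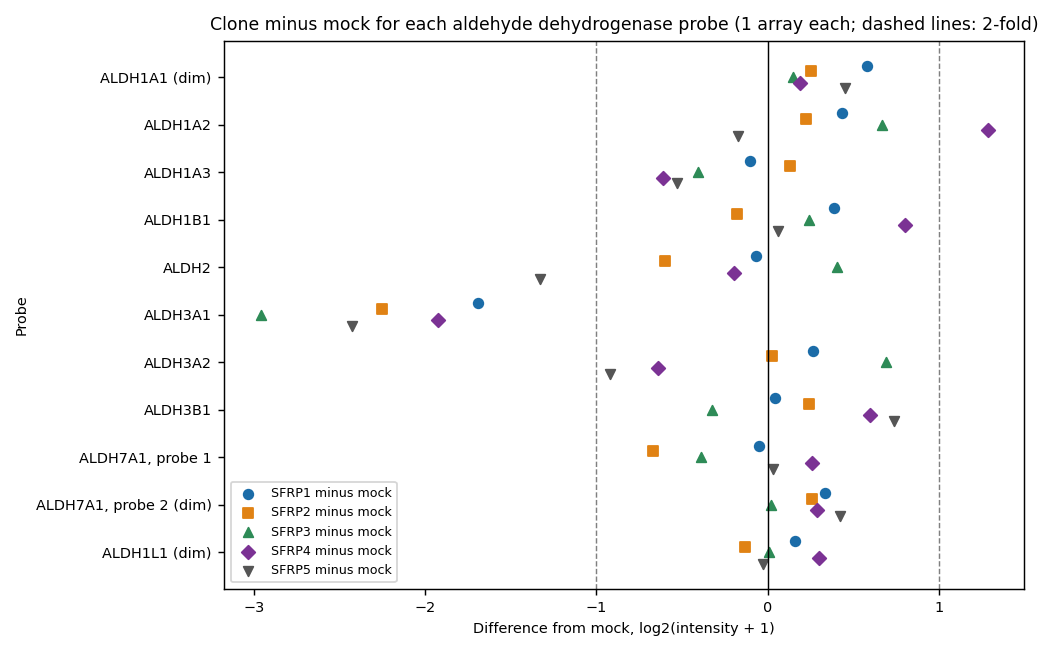
Difference of each SFRP clone from mock on the log2(intensity + 1) scale (x axis) for the 11 ALDH probes (y axis), 1 array per population, with dashed lines at 2-fold and (dim) after a probe that did not pass the filter. Only ALDH3A1 has all 5 clones beyond 2-fold (-1.69 to -2.96), and the other points beyond it are ALDH1A2 in SFRP4 (1.29) and ALDH2 in SFRP5 (-1.33).

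Counted per clone over the 8 probes that passed the filter, 1 was at least 2-fold from mock in SFRP1, against 9.02% of all 15227 probes. The count was also 1 in SFRP2 (6.63% of all probes) and in SFRP3 (6.74%), each time ALDH3A1. It was 2 in SFRP4 (13.7%), ALDH3A1 and ALDH1A2, and 2 in SFRP5 (12.3%), ALDH3A1 and ALDH2. ALDH3A1 passed the filter through mock alone and ALDH1A2 through SFRP4 alone. Without these probes the count was 0 in SFRP1, SFRP2, SFRP3 and SFRP4, and 1 in SFRP5 (ALDH2). Both probes are included in the medians and sign counts that follow, so no family trend is read from those. The median difference over the 8 probes was -0.0021 in SFRP1, -0.08 in SFRP2, -0.04 in SFRP3, 0.03 in SFRP4 and -0.35 in SFRP5. The median over all probes tested was 0.05 in SFRP1, 0.08 in SFRP2, 0.03 in SFRP3, 0.04 in SFRP4 and 0.09 in SFRP5. In SFRP1 to SFRP4 the 8 probes split into 4 above and 4 below mock, and in SFRP5 into 3 above and 5 below. Of these 40 signs, 5 turned under another scaling, pseudocount or floor.

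Over all 6 arrays, 5 of the 8 probes spanned at least 1 log2 unit between their highest and lowest array, against 48.7% of all probes tested, but ALDH3A1 and ALDH1A2 had passed the filter through 1 bright array each. With the stricter filter the count was 3 of 6. The 5 probes were ALDH3A1 (2.96), ALDH2 (1.74), ALDH3A2 (1.61), ALDH1A2 (1.46) and ALDH3B1 (1.07). ALDH1B1 (0.98) and the bright ALDH7A1 probe (0.93) lay just under this span. With 1 array each, neighbouring populations in these orders cannot be separated from array error. Over the 10 pairs of clones, 0 of the 8 probes differed at least 2-fold in 3 pairs, 1 in 3 pairs, 2 in 3 pairs and 3 in 1 pair, while the share of all probes ran from 6.58% to 20.8%. The pair with 3 was SFRP3 and SFRP5 (ALDH2, ALDH3A2 and ALDH3B1), where the share of all probes was 9.20%. It was named for its count, so nothing is read from it. The highest share, 20.8%, was in SFRP4 and SFRP5, with 2 probes (ALDH1A2 and ALDH2). The lowest, 6.58%, was in SFRP2 and SFRP3, with 1 (ALDH2). ALDH1A2, kept by the filter for its SFRP4 reading, was also the probe counted in SFRP2 and SFRP4. ALDH3A1, below the table's median in all 5 clones, was counted in SFRP1 and SFRP3 and in SFRP3 and SFRP4.

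Profiles were compared by the root mean square difference of log2 values over the 6 arrays after each probe was centred on its own mean, a description with no test. Among members this was smallest for ALDH1B1 and the bright ALDH7A1 probe (0.25), followed by ALDH1A2 and ALDH1B1 (0.27) and ALDH2 and ALDH3A2 (0.34). ALDH1A2 passed the filter through the SFRP4 array alone, where ALDH1B1 was also brightest, so nothing is read from that closeness. The genes nearest to ALDH3A1, of 11962, were PECAM1 (the adhesion molecule CD31; 0.36), CHI3L2 (a chitinase-like protein; 0.37) and ALOX5AP (the 5-lipoxygenase activating protein; 0.38). PECAM1 read 527.2 to 718.1 in the clones and 4134 in mock. CHI3L2 read 303.8 to 528.6 in the clones and 1506 in mock, and ALOX5AP 140.3 to 329.3 in the clones and 701.1 in mock. Being nearest to ALDH3A1, they share its high mock reading by choice, and CHI3L2 and ALOX5AP also passed the filter through mock alone.

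PECAM1 is also 1 of the 4 endothelial markers examined, and of these it alone was lower in all 5 clones. VWF read 541.9 to 709.6 in the clones and 608.0 in mock, CDH5 225.1 to 488.5 in the clones and 357.1 in mock, and KDR 131.2 to 277.8 in the clones and 203.0 in mock. The summed intensity of the 4 markers was 1673 to 2003 in the clones and 5302 in mock, and none was at 0. Epithelial markers summed to 1654 to 6993 in the clones and 6046 in mock, with none at 0. The part of these markers in the ALDH3A1 difference was not tested. In bulk samples fewer cells with a transcript and less of it per cell cannot be told apart.

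The profile of ALDH1A3 was matched most closely by NDUFB2, a subunit of respiratory complex I (0.06), SLC35C2 (0.09) and ITPA, which hydrolyses inosine triphosphate (0.09). NDUFB2 read 54929 in SFRP1, 57764 in SFRP2, 42263 in SFRP3, 35366 in SFRP4 and 36667 in SFRP5, against 53567 in mock. The genes nearest to the dim ALDH1A1 probe were DOPEY1 (0.05), RGS12, a regulator of G-protein signalling (0.05), and PPFIA4 (0.06). They span about as little over the arrays as ALDH1A1 does: DOPEY1 differed from mock by 0.53 in SFRP1 and 0.03 in SFRP3. Only probes that passed the filter were compared with ALDH1A1, which did not pass. RGS12 passed through the SFRP1 array alone, where ALDH1A1 was also brightest.

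**Figure D3:**
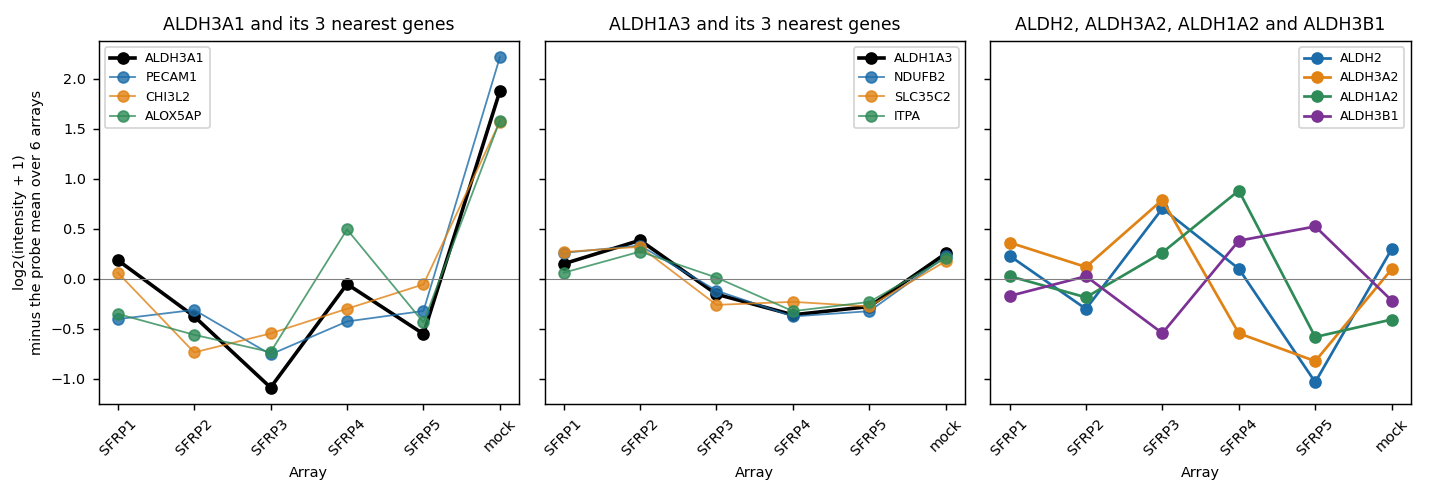
Profiles over the 6 arrays (x axis) as log2(intensity + 1) minus the mean of each probe over the arrays (y axis), for ALDH3A1 and ALDH1A3 each with its 3 nearest genes and for ALDH2, ALDH3A2, ALDH1A2 and ALDH3B1. ALDH3A1, PECAM1, CHI3L2 and ALOX5AP are highest on mock, while ALDH2 and ALDH3A2 are highest in SFRP3 and lowest in SFRP5.

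For the gene lists below, the shares of all 11963 genes at least 2-fold above mock were 4.42% in SFRP1, 2.80% in SFRP2, 3.73% in SFRP3, 5.99% in SFRP4 and 5.99% in SFRP5. At least 2-fold below mock were 4.34% in SFRP1, 3.91% in SFRP2, 3.18% in SFRP3, 7.51% in SFRP4 and 6.52% in SFRP5. Of the 9 ALDH genes outside the member list, all were on the array and 8 passed the filter, and limma called 0 of them (0 at an unadjusted p under 0.05 as well). At least 2-fold from mock were ALDH5A1, the succinate semialdehyde dehydrogenase, by -1.28 in SFRP2, and ALDH4A1, an enzyme of proline breakdown, by -1.04 in SFRP4. ALDH1L2, the mitochondrial relative of ALDH1L1, differed by 1.06 in SFRP4. ALDH5A1 read 2255 in SFRP1, 1541 in SFRP2, 4251 in SFRP3, 2472 in SFRP4 and 2153 in SFRP5, against 3754 in mock, so only the SFRP3 clone lay above mock. ALDH3B2 differed from mock by 0.30 ± 0.26 and ALDH9A1 by -0.20 ± 0.51 (SD over 5 clones). The median difference of the 8 genes was -0.18 in SFRP2 to 0.12 in SFRP3, where the median of all 11963 genes was 0.08 and 0.03.

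The retinoid steps upstream of the ALDH1A enzymes gave 4 genes that passed the filter, of 11 on the array, and limma called 0 of them (0 at an unadjusted p under 0.05). RDH10, which oxidises retinol to retinaldehyde, read 5158 in SFRP1, 2492 in SFRP2, 3232 in SFRP3, 12899 in SFRP4 and 14758 in SFRP5, against 5384 in mock. DHRS3, which reduces retinaldehyde back to retinol, read 15299 in SFRP1, 13794 in SFRP2, 6486 in SFRP3, 5255 in SFRP4 and 17772 in SFRP5, against 16548 in mock. RDH10 differed from mock by 1.26 in SFRP4, 1.45 in SFRP5 and -1.11 in SFRP2, and DHRS3 by -1.65 in SFRP4 and -1.35 in SFRP3. RDH11, another retinaldehyde reductase, differed by -1.47 in SFRP4, and RDH13 stayed within 2-fold in every clone. The median of the 4 genes was -0.77 in SFRP4 and 0.21 in SFRP5, where the median of all genes was 0.06 and 0.10. ALDH1A2, whose probe passed the filter through the SFRP4 array alone, differed by 1.29 in SFRP4 and -0.17 in SFRP5. No link to the genes above is read from it.

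Of 18 genes for retinoic acid binding, signalling and breakdown on the array, 11 passed the filter and limma called 0, with 1 at an unadjusted p under 0.05. That gene was TGM2, a transglutaminase induced by retinoic acid, which read 4212 in SFRP1, 4737 in SFRP2, 4341 in SFRP3, 1780 in SFRP4 and 3218 in SFRP5, against 11134 in mock. It differed by -1.69 ± 0.57 (SD over 5 clones; limma adjusted p = 1.00). The receptor gene RARG was above mock in all 5 clones, by 0.81 ± 0.27 (SD over 5 clones; limma adjusted p = 1.00). RARB, a receptor gene that retinoic acid induces, was 1.43 above mock in SFRP3 and 1.22 above it in SFRP4, while it differed by -0.81 in SFRP2. The RARB probe passed the filter through the SFRP3 and SFRP4 arrays alone, so its height there was partly set by the filter. Of the retinoic acid carriers, CRABP2 differed by 1.35 in SFRP4 and FABP5 by -1.19, and FABP5 was below mock in all 5 clones (-0.61 ± 0.43, SD over 5 clones; limma adjusted p = 1.00). CYP26B1, which degrades retinoic acid, differed by -1.03 in SFRP4. In all, 2 of the 11 genes were at least 2-fold higher and 3 lower in that clone. RARB, with the limit given above, is among the 2.

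NRF2 (NFE2L2) is the transcription factor of the oxidative stress response and is active in A549 cells, which carry an altered KEAP1, its inhibitor. Of 19 genes of this pathway on the array 16 passed the filter, and limma called 0 (0 at an unadjusted p under 0.05). NQO1, AKR1C2 and GPX2 did not pass, and NQO1, a target of NRF2, read 62.3 to 109.6 in the clones and 104.3 in mock. At least 2-fold lower than mock were 3 of the 16 in SFRP1 (AKR1B10 by -2.06, GCLM by -1.86 and HMOX1 by -1.07), 2 in SFRP2 (AKR1C3 by -1.80 and AKR1C1 by -1.30) and 3 in SFRP4 (GCLM by -2.09, AKR1C1 by -1.55 and TXNRD1 by -1.16). At least 2-fold higher were GCLC by 1.12 in SFRP1, and HMOX1 by 1.58 and TXNRD1 by 1.38 in SFRP5. SFRP3 had 0 of 16 in either direction. The median of the 16 genes ran from -0.12 in SFRP4 to 0.23 in SFRP3, where the median of all genes was 0.06 and 0.03. The aldo-keto reductase gene AKR1B10, whose product reduces aldehydes, read 223.2 in SFRP1, 553.5 in SFRP2, 523.5 in SFRP3, 523.3 in SFRP4 and 814.9 in SFRP5, against 934.1 in mock. AKR1B10 passed the filter through the SFRP5 and mock arrays alone, so its lower readings in the other clones were partly set by the filter. Its place among the 3 genes lower in SFRP1 carries that limit.

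The aryl hydrocarbon receptor (AHR) pathway, which induces ALDH3A1 in several tissues, had 6 genes, and all passed the filter with 0 called by limma (0 at an unadjusted p under 0.05). CYP1A1, its best known target, read 290.8 in SFRP1, 103.4 in SFRP2, 142.1 in SFRP3, 881.4 in SFRP4 and 54.3 in SFRP5, against 503.7 in mock. Its SFRP5 reading lay below that array's 10th percentile of 77.0, so its size there is set by the floor. CYP1A1 and AHRR, the receptor's repressor, passed the filter through the SFRP4 array alone, so both had to be high on that array. In SFRP4, 4 of the 6 genes were at least 2-fold higher than mock, where the share of all genes was 5.99%. AHRR (2.45) is counted among the 4 although the filter kept it for this array. The others were AHR by 1.93, TIPARP by 1.23, and the cytochrome P450 gene CYP1B1, which read 19312 in this clone and 6804 in mock. Also at least 2-fold higher were AHR and TIPARP (1.21) in SFRP1 and TIPARP (1.14) in SFRP3. At least 2-fold lower were CYP1A1 in SFRP2, SFRP3 and SFRP5 and CYP1B1 in SFRP2 (-1.43). The part of this pathway and of the NRF2 pathway in the ALDH3A1 difference was not tested.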

How the data were processed

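Linear intensity values of 31741 probes on 6 one-colour Cy5 arrays were used as the authors deposited them. RNA was extracted with Trizol, amplified and labelled, per the labels' protocols. The sources used here do not give the background correction or the scaling. Negative values were replaced by 0 before log2(intensity + 1) was taken, with 1 as the pseudocount. Symbols came from the platform annotation (24740 probes with 1 symbol, 977 with several, 6024 with none), and all 10 member symbols are current in RefSeq. No probe position was used. Groups were taken from sample titles. Probes whose brightest array reached the table's median (15227) were tested two-sided, clones as a set against mock, with lmFit and eBayes of limma 3.58.1 (R 4.3.3). The fit had 4 residual degrees of freedom, and p was adjusted by the Benjamini-Hochberg method. Single clones were compared by counts at 2-fold, with no test. The fit was tested on simulated data. For each list the brightest probe per gene that passed was used, and up to 4 genes with the largest mean difference were named, with further genes at least 2-fold from mock chosen after their values were seen. For ALDH1A1, ALDH1A3 and ALDH3A1 the 3 nearest genes were named. Members and lists were chosen with earlier results of these data known. Alternatives were other scalings, pseudocounts, floors, filters and probe choices, a variance trend and leaving out clones.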

Additional observations from a re-analysis of the deposited data

How the results depend on the processing

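Limma called 0 of the ALDH probes under quantile normalization, median centring, a pseudocount of 50, values raised to the 10th percentile of their array, no filter, a stricter filter, the brightest probe per gene, a mean-variance trend and without each SFRP clone in turn. The adjusted p of ALDH3A1 lay between 0.452 and 1.00 over the 12 settings that kept its probe, and its difference between -2.39 and -1.94. The stricter filter, a mean over the arrays at or above the table's median, removed the probes of ALDH3A1 and ALDH1A2. By this construction the number of ALDH probes at least 2-fold from mock became 0 in SFRP1, SFRP2, SFRP3 and SFRP4 and 1 in SFRP5, and the number spanning 1 log2 unit over the 6 arrays became 3. Median centring gave 3 probes at least 2-fold from mock in SFRP5, with ALDH3A2 added. Of the 55 differences between a clone and mock, 8 turned sign under another scaling, pseudocount or floor, and the largest of these was 0.16 in size. No paired analysis was possible because each group has 1 array. The span over the arrays was recomputed after seeing the data. The 1 array per population and the dim probes of ALDH1A1, ALDH3A1 and ALDH1L1 limit what can be read from them.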
